A study of Mus musculus with 2 samples.

Results

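S100 proteins are small calcium-binding proteins with paired EF-hand motifs, and 9 genes of the family were followed here across the cells of the neonatal mouse pituitary. The members were chosen by name (S100a1, S100a4, S100a6, S100a10, S100a11, S100a13, S100a16, S100b and S100g), and each had a row in both count tables, so that they are 9 of 31055 features. Another 8 S100 genes with a row (S100a2, S100a3, S100a5, S100a7a, S100a8, S100a9, S100a14 and S100z) are described at the end.

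Most S100 proteins work as dimers that open a binding surface when calcium rises and then dock onto annexins, the cytoskeleton or enzymes. S100A10 is the exception, since it no longer binds calcium and sits at the plasma membrane in a complex with annexin A2. In the adult pituitary, S100B protein is the classical marker of folliculostellate cells, a population that overlaps with the SOX2 and SOX9 stem cells (SCs).

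The study sorted the SOX9iresGFP+ cells of Sox9iresGFP/+ pituitaries at postnatal day 3 by FACS and made 1 droplet library per sex, each from a pool of 3 glands according to the methods. The reporter allele is carried by both groups, and GFP outlasts SOX9, so the sorted cells hold SCs together with their recent progeny. The tables held 10569 barcodes with 106039887 unique molecular identifiers (UMIs) in the male library and 5796 barcodes with 62897759 UMIs in the female library. After filtering, 10410 male and 5711 female cells were kept, with medians of 8902.5 and 9789.0 UMIs. The libraries shared 19 barcode sequences, 18 of them among the kept cells. With 1 library per sex there is no replicate, so no test was made, and sex cannot be told apart from the library, the pooled animals and the sort.

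Cells were assigned to classes by raw UMIs of marker genes other than S100 genes. SCs had at least 2 Sox2 UMIs and no Lef1 UMI (3396 male and 3458 female cells). They were divided into Ednrb-rich SCs (664 and 1269), Aldh1a2-rich SCs (1139 and 777) and other SCs (1593 and 1412). Differentiating cells had at least 2 UMIs of Lef1, a transcription factor of WNT signalling, and no hormone gate (889 and 603). The endocrine classes were gonadotroph-like cells (338 and 24), POU1F1-lineage cells (791 and 282) and POMC-rich cells (342 and 131). Cells without Pitx1 formed a mesenchymal class (547 and 303) and a pituicyte-like class with 10 male cells and 0 female cells. In the male library 60.6% of kept cells fell into the 9 classes, and in the female library 84.1%. Check markers that were not used for the gates were highest in the intended class for 5 of 5 mesenchymal and 5 of 5 pituicyte genes. The count was 3 of 5 in gonadotroph-like cells and 4 of 5 in POU1F1-lineage cells in both libraries, 5 of 5 (male) and 4 of 5 (female) in POMC-rich cells, 2 of 3 in differentiating cells, and 4 of 8 (male) and 6 of 8 (female) in SCs.

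A level is given in CPM, all UMIs of the gene in a class of one library over all UMIs of that class, scaled to a total of 1000000 UMIs. UMIs were counted at the 3′ end of transcripts and were not divided by gene length. Levels carry exact Poisson 95% intervals, shares of cells exact Clopper-Pearson 95% intervals and ratios exact conditional 95% intervals, which all cover counting error only. A gene was counted as higher or lower when its level differed at least 2-fold in the same direction in both libraries. This required at least 10 CPM in either class and 20 UMIs over both classes, in each library. The same rule over all genes gives the background percentages below.

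The 9 genes fell into 3 patterns, which the plot of levels by class shows. S100a11, S100a10, S100a16 and S100a1 were high in SCs and low in differentiating cells. S100a6 and S100a13 were more than 2-fold higher in mesenchymal cells than in SCs, while S100a10 and S100a16 also had their highest level there (among the 8 classes other than the pituicyte-like one) but stayed under 2-fold. S100a4, S100b and S100g were rare transcripts, with their highest levels among the same 8 classes in POMC-rich, mesenchymal and Aldh1a2-rich cells, respectively. For S100g and S100a4 the intervals of the class ranked first and the next one overlapped in both libraries. Together the 9 genes reached 1789 CPM (male) and 2001 CPM (female) in SCs, 449 and 538 CPM in differentiating cells, 377 and 262 CPM in gonadotroph-like cells and 2511 and 2613 CPM in mesenchymal cells.

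**Figure D1:**
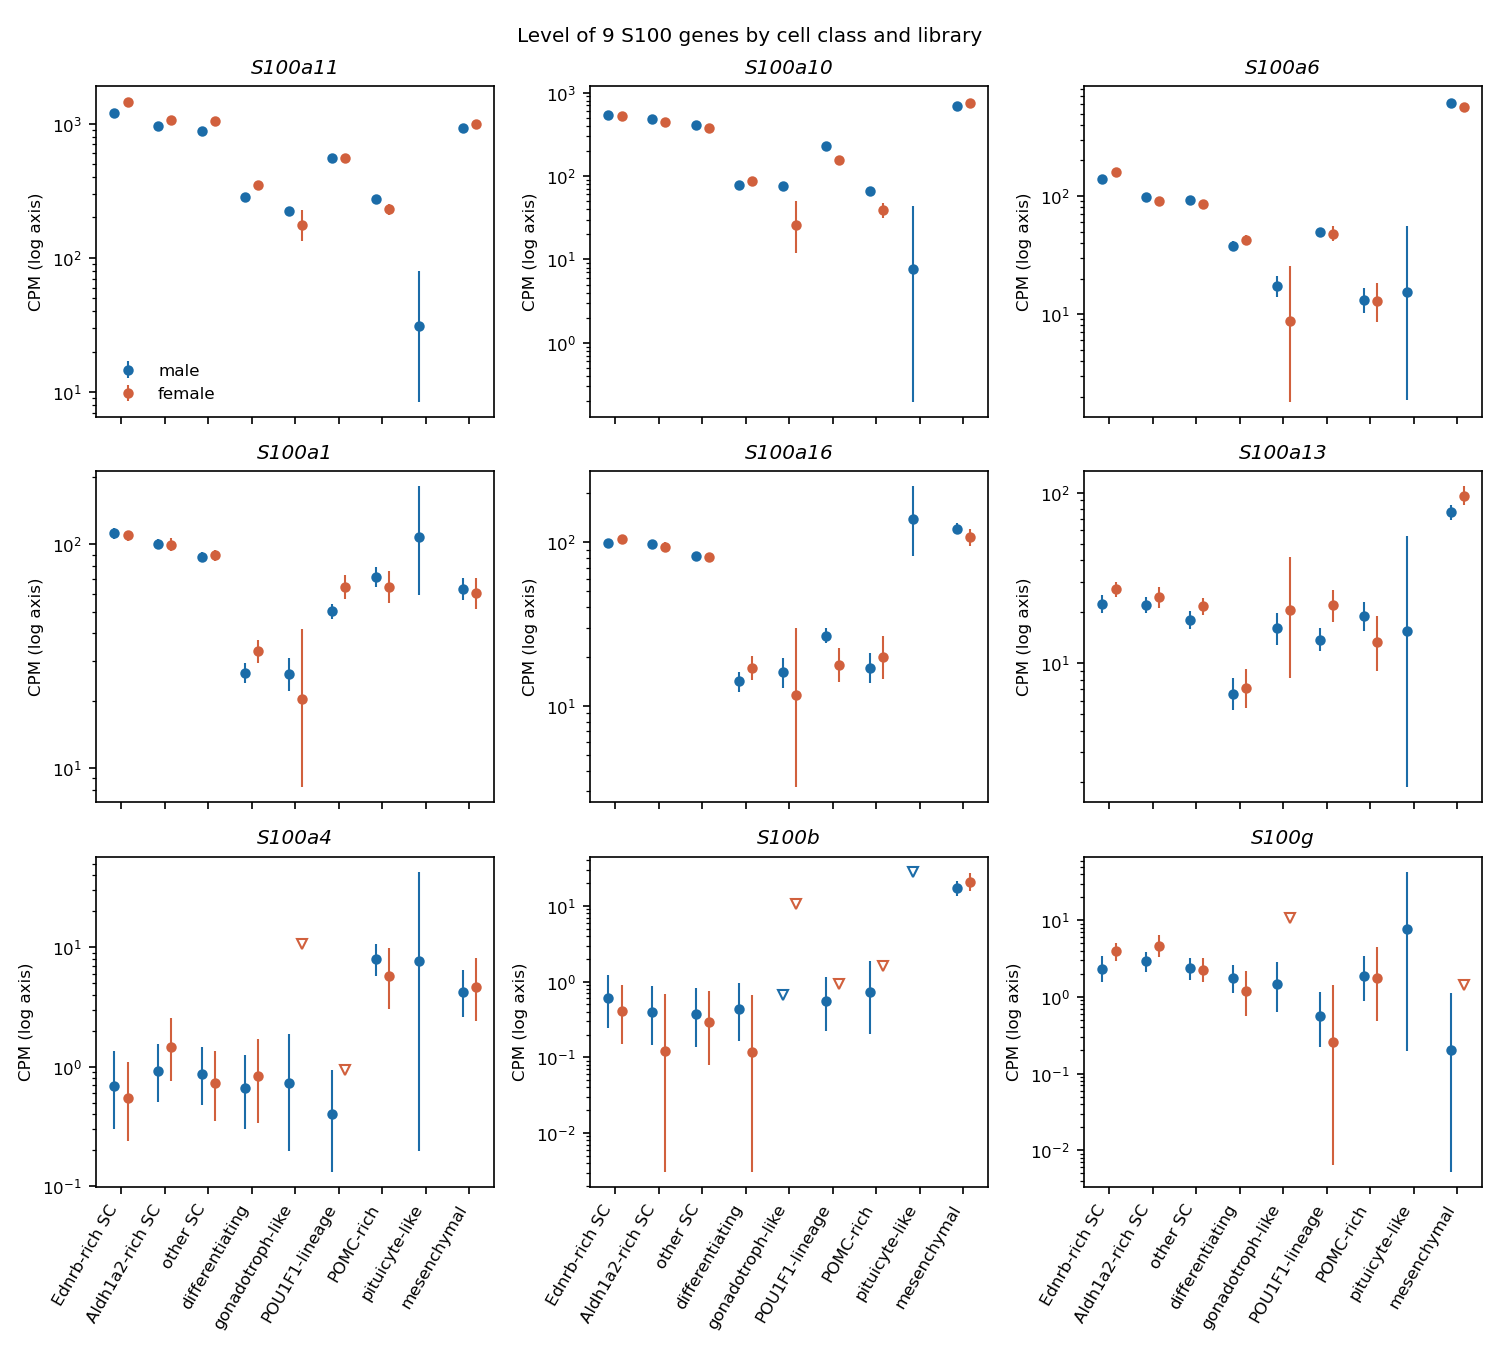
Level of each S100 gene (CPM, log axis) in 9 cell classes of the male (blue) and female (orange) library. Points are levels, bars are exact Poisson 95% intervals, and open triangles mark the upper interval bound of classes without a UMI; S100a11 lies at 995 and 1211 CPM over all SCs and at 282 and 350.1 CPM in differentiating cells.

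Of the 9 genes, 7 lie on mouse chromosome 3 in 2 groups (mm10, GENCODE vM21). S100a1 (ENSMUSG00000044080, chr3:90511034-90514392, minus strand), S100a13 (ENSMUSG00000042312, chr3:90514435-90524581, plus), S100a16 (ENSMUSG00000074457, chr3:90537254-90543151, plus), S100a4 (ENSMUSG00000001020, chr3:90603771-90606045, plus) and S100a6 (ENSMUSG00000001025, chr3:90612882-90624181, plus) span 113 kb. S100a11 (ENSMUSG00000027907, chr3:93520488-93526287, plus) and S100a10 (ENSMUSG00000041959, chr3:93555080-93564643, plus) span 44.2 kb and lie 2.90 Mb further on. S100b (ENSMUSG00000033208, chr10:76253853-76261159, plus) and S100g (ENSMUSG00000040808, chrX:162961992-162964599, minus) stand alone. No member overlaps another S100 gene. S100a1 and S100a13 face away from each other, with starts 43 bp apart.

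Promoter sequence is shown for S100a11, the member with the most UMIs, and for S100a4, one of the 3 members that were rare in SCs, because their windows differ in core motifs. RefSeq gave a start for 8 of the 9 members (GRCm38.p6, the mm10 assembly; S100a10 had no entry). The windows below are the 250 bases before the start, on the plus strand of chr3:93520246-93520495 for S100a11 and chr3:90603520-90603769 for S100a4. Capitals mark matches to TGANTCA, the AP-1 motif, in S100a11, and to TATAAA, the TATA box, in S100a4.
S100a11: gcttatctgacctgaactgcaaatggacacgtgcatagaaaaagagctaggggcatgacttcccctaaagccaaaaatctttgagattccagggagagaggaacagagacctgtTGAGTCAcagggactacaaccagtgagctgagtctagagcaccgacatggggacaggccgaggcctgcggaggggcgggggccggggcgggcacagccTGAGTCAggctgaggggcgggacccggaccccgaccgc
S100a4: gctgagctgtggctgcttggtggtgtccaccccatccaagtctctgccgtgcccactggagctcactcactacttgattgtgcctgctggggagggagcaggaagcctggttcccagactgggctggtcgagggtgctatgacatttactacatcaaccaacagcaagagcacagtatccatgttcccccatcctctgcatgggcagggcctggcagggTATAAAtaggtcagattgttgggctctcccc
The S100a11 window held 2 AP-1 matches, and 0.326% of 27025 promoter windows searched on both strands had as many (6.87% had at least 1). The S100a4 window held 1 TATAAA match 31 bases before the start, a motif found in 13% of windows. The other 6 windows had no match to these motifs, and none of the 8 windows had GGAATG, the TEAD motif, which 12.6% of all windows hold. The motifs were chosen after the sequences had been seen, and a match is a description of the letters, not evidence of binding.

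Within the SC compartment, the S100 genes that could be tested differed by less than 2-fold. S100a4, S100b and S100g stayed under 10 CPM and were not tested. Ednrb marks SCs of the cleft and Aldh1a2, a retinoic acid synthesis enzyme, those of the anterior lobe. Of the 6 members tested between these SCs, 0 were counted as higher or lower in Ednrb-rich SCs, where 0.749% of genes were higher and 0.292% lower. Their median log2 ratio of Ednrb-rich over Aldh1a2-rich SCs was 0.17 (male) and 0.21 (female), against 0.06 and 0.06 over all genes tested. With the gates set on thinned counts, 1 member, S100a6, was counted as higher in Ednrb-rich SCs.

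S100a6, which encodes calcyclin, had the widest gap. Its level was 139 CPM (male) and 159 CPM (female) in Ednrb-rich SCs and 98.0 and 90.0 CPM in Aldh1a2-rich SCs. These are ratios of 1.42 (1.32 to 1.52) and 1.76 (1.62 to 1.92). S100a11, an annexin A1 partner, was at 1193 and 1452 CPM against 963 and 1062 CPM, ratios of 1.24 and 1.37. Both genes were thus higher in Ednrb-rich SCs beyond counting error in each library, but under the 2-fold limit. Ednrb-rich SCs also held more cycling cells, 49.4% and 29.8% against 33.5% and 21.5%. Among non-cycling cells alone, the S100a6 ratio was 1.76 (1.59 to 1.96) and 1.68 (1.52 to 1.85), and that of S100a11 was 1.43 and 1.45.

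The other 4 tested members were nearer to even, although the intervals of S100a10 (1.09 to 1.16 and 1.15 to 1.25) and S100a1 (1.04 to 1.21 and 1.01 to 1.20) also lay above 1. S100a10 was at 545 and 528 CPM in Ednrb-rich SCs and 484 and 441 CPM in Aldh1a2-rich SCs. S100a1, best known as a regulator of calcium handling in muscle, was at 112 and 109.7 CPM against 100.4 and 99.8 CPM. S100a16 was at 99.3 and 104 CPM against 98.1 and 93.8 CPM, and S100a13, which takes part in the release of FGF1, at 22.3 and 27.1 CPM against 21.9 and 24.3 CPM. Anxa1, the annexin bound by S100A11, was the 1 gene of 18 tested in a list of 25 partner and calcium-pathway genes that was counted as higher in Ednrb-rich SCs. It was at 14.2 and 35.0 CPM there and at 6.88 and 6.10 CPM in Aldh1a2-rich SCs.

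SCs at this age divide, and cycling cells were those with UMIs of at least 2 of 8 proliferation genes. Of the 6 members tested, 0 were counted as higher or lower in cycling SCs, against 4.91% and 0.417% of all genes. The median log2 ratio of the members was -0.05 (male) and -0.03 (female), with 0.01 and -0.02 over all genes. S100a10 was above even in both libraries, with 545 and 551 CPM in cycling and 399.6 and 405 CPM in non-cycling SCs, a ratio of 1.36 in each library. S100a13 lay on the other side, at 16.8 and 20.5 CPM against 24.2 and 26.3 CPM, ratios of 0.695 (0.605 to 0.796) and 0.779 (0.670 to 0.904). The ratios over all SCs mix classes with unlike shares of cycling cells. Within Ednrb-rich SCs, the S100a10 ratio was 1.05 (0.994 to 1.11) and 1.20 (1.14 to 1.25). Within Aldh1a2-rich SCs it was 1.25 and 1.23. S100a11, at 1.05 and 0.989 over all SCs, was at 0.794 and 0.837 within Ednrb-rich and 0.978 and 0.962 within Aldh1a2-rich SCs. S100a1 was below even in both classes, at 0.817 and 0.832 and at 0.777 and 0.850. Cycling SCs were deeper, with medians of 15676.5 and 12582.0 UMIs per cell against 8944.0 and 8675.0.

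Every S100 gene that could be tested was lower in differentiating cells than in SCs, 6 of 6, where 11% of genes were lower and 4.27% higher. The median log2 ratio of these 6 was -1.85 (male) and -1.78 (female), with 0.03 and 0.01 over all genes tested. S100a4, S100b and S100g stayed under 10 CPM in both and were not tested.

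S100a10 was at 471 CPM (male) and 453 CPM (female) in SCs and at 77.9 and 86.1 CPM in differentiating cells, 6.05-fold (5.69 to 6.44) and 5.26-fold (4.88 to 5.68) lower. S100a16 was at 92.4 and 93.0 CPM in SCs and at 14.1 and 17.1 CPM in differentiating cells, 6.55-fold and 5.43-fold lower. These were the largest differences among the members in both libraries. S100a11 was 3.52-fold and 3.46-fold lower and S100a1 3.70-fold and 3.00-fold lower, with S100a1 at 26.7 and 33.3 CPM in differentiating cells. S100a13 was 3.11-fold and 3.41-fold lower, at 6.61 and 7.14 CPM, its lowest level among the classes. S100a6 had the smallest difference, 2.83-fold (2.58 to 3.10) and 2.72-fold (2.44 to 3.04).

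**Figure D2:**
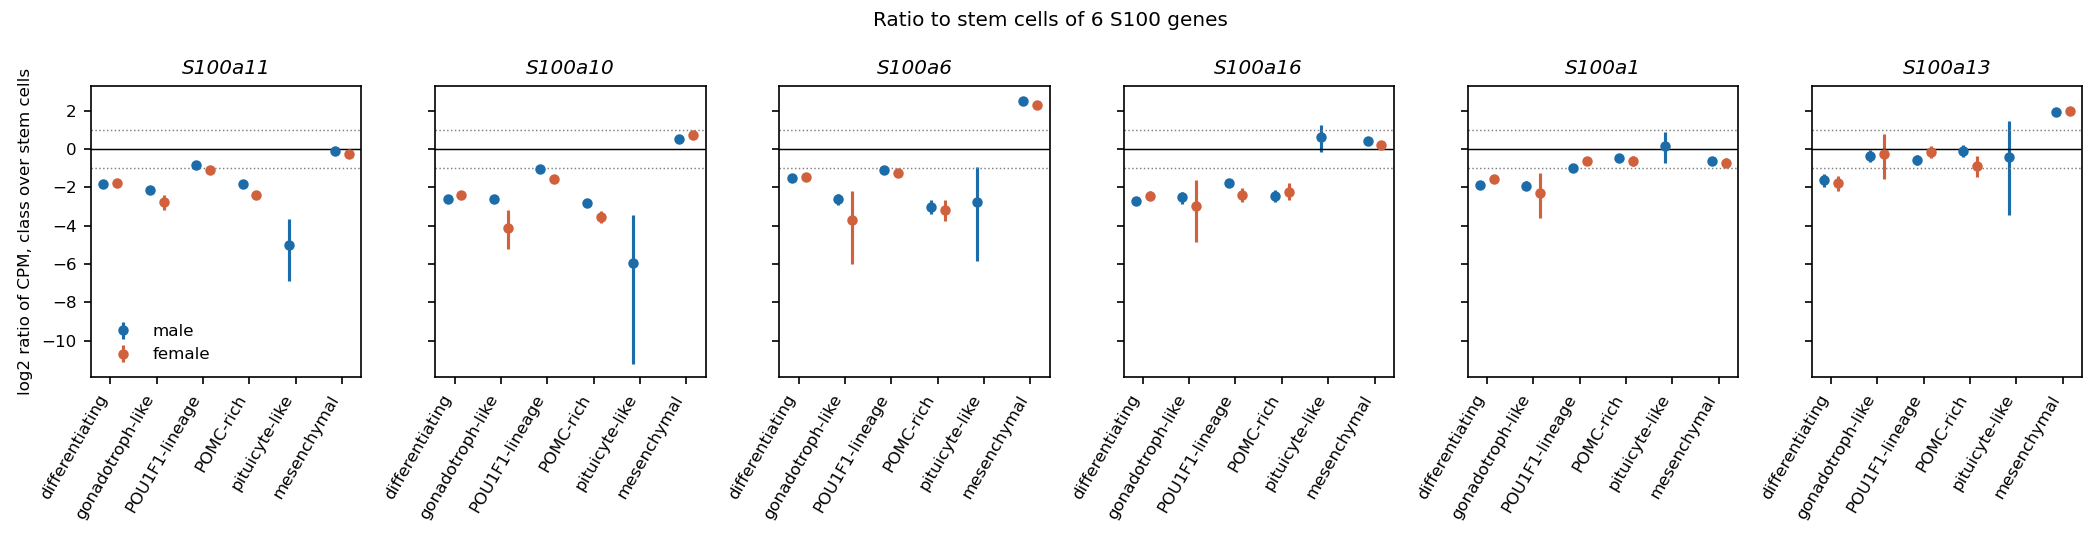
log2 ratio of the level in each class to the level in all SCs for 6 S100 genes, male (blue) and female (orange), with exact 95% intervals. Dotted lines mark 2-fold; the pituicyte-like class is from the male library only, and S100a6 and S100a13 lie above the upper dotted line in mesenchymal cells of both libraries.

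The share of cells showed the same drop. After each cell was drawn down to 5000 UMIs, S100a10 was detected in 80.9% of male and 80.7% of female SCs and in 22.3% (19.6 to 25.2) and 25.3% (21.9 to 29.0) of differentiating cells. Without thinning, the shares were 85.5% and 90.9% in SCs and 40.0% and 45.9% in differentiating cells. S100a11 was detected in 94.6% and 96.8% of thinned SCs and still in 62.1% and 68.0% of differentiating cells. Thinned gonadotroph-like cells had S100a10 in 13.1% and 13% of cells, so that the share in differentiating cells lay above that class in the male library and within its counting interval (2.78 to 33.6) in the female library.

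Early differentiating cells (Cdkn1a and Dll1 UMIs without the late markers, 51 male and 42 female cells) lay between SCs and late ones (Smoc2, Pou3f4 and Shh UMIs, 323 and 200 cells) for most members. S100a10 was at 197 and 170.2 CPM in early and at 55.6 and 50.8 CPM in late cells, S100a16 at 35.9 and 34.7 CPM and then at 9.34 and 6.44 CPM. S100a6 differed from them, since its early level of 99.1 and 92.5 CPM was 0.924 (0.731 to 1.15) and 0.802 (0.604 to 1.04) of that in SCs, intervals that include even. Its late level, 23.2 and 25.0 CPM, was 4.26-fold (3.16 to 5.73) and 3.70-fold (2.55 to 5.33) below the early level. S100a6 was therefore the 1 member of these whose early level could not be told from that of SCs in both libraries at this depth, apart from S100a13 with 10 and 8 early UMIs.

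Levels were also read along the number of Lef1 UMIs per 5000, in Pitx1 cells outside the hormone gates. This split was added after the levels had been seen. S100a10 went from 383 CPM (male) and 394 CPM (female) without a Lef1 UMI to 99.4 and 96.5 CPM with 1, 44.4 and 59.4 CPM with 2 and 40.3 and 47.2 CPM with 3 or more. S100a11 went from 821 and 1066 CPM to 321 and 376, 255 and 282, and 205 and 254 CPM. Most of the difference thus lay between 0 and 1 Lef1 UMI. Over the same cells Sox2 moved less, from 521 and 674 CPM without Lef1 to 328 and 422 CPM in the highest group.

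**Figure D3:**
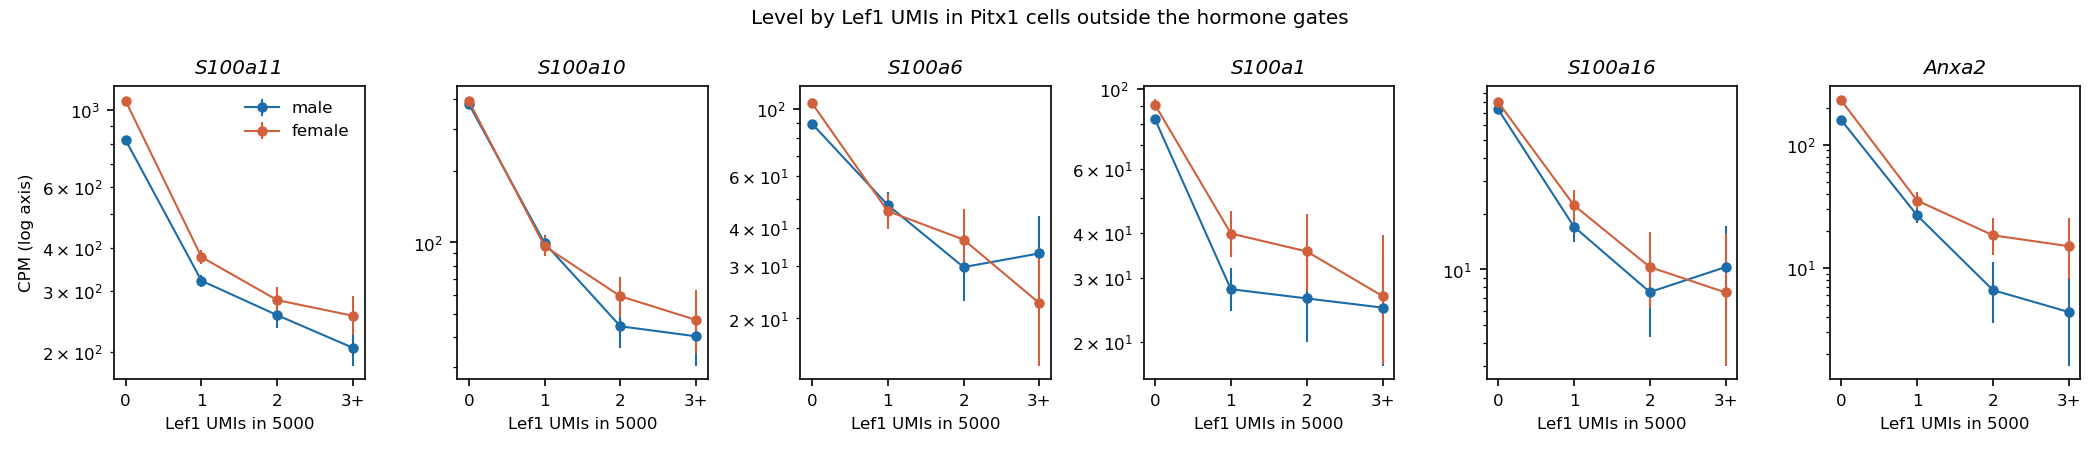
Level (CPM, log axis) of 5 S100 genes and Anxa2 by the number of Lef1 UMIs in cells thinned to 5000 UMIs, male (blue) and female (orange), with exact Poisson 95% intervals. The groups hold 3477, 530, 153 and 96 male and 3231, 378, 141 and 69 female cells; S100a10 is at 383 and 394 CPM without Lef1 and at 40.3 and 47.2 CPM in the highest group.

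Some partners of S100 proteins were lower in the same comparison. Of 18 partner and pathway genes tested, 6 were counted as lower in differentiating cells and 1 as higher. Anxa2, the partner of S100A10, was at 200.1 CPM (male) and 265 CPM (female) in SCs and at 21.2 and 30.1 CPM in differentiating cells, 9.46-fold and 8.81-fold lower. Ahnak, a giant scaffold bound by the S100A10 and annexin A2 complex, was 7.95-fold and 6.71-fold lower. Anxa11 was 5.81-fold and 4.04-fold lower, Anxa5 3.23-fold and 3.12-fold, Tpm1 (tropomyosin) 2.61-fold and 3.27-fold and Anxa6 2.13-fold and 2.03-fold. Ppp5c, a protein phosphatase that S100 proteins can bind, was the gene counted as higher, with 92.5 and 74.6 CPM against 39.8 and 35.0 CPM.

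Gonadotroph-like cells were lower than SCs in 5 of the 6 members tested, where 11.5% of genes were lower and 9.43% higher. The median log2 ratio was -2.35 (male) and -2.89 (female), with 0.07 and 0.04 over all genes. S100a10 was at 76.4 and 26.2 CPM, S100a11 at 223 and 175 CPM, S100a6 at 17.2 and 8.74 CPM, S100a1 at 26.3 and 20.4 CPM and S100a16 at 16 and 11.7 CPM. S100a13 was the gene not counted, at 16 and 20.4 CPM against 20.5 and 24.4 CPM in SCs. It was 2.65-fold (1.73 to 4.19) and 3.80-fold (1.31 to 9.90) above late differentiating cells. The female values rest on 24 cells.

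For S100a10, S100a6 and S100a16, the levels came mainly from a minority of the gonadotroph-like cells, those that also held Sox2 UMIs. This split was added after the levels had been seen. In the 241 male cells without a Sox2 UMI, S100a10 had 21 UMIs (6.07 CPM), S100a6 had 9 UMIs (2.60 CPM) and S100a16 had 1 UMI (0.289 CPM). The 60 male cells with at least 2 Sox2 UMIs had 365 UMIs of S100a10 (234 CPM), 80 of S100a6 (51.4 CPM) and 84 of S100a16 (53.9 CPM). In the female library, the 18 cells without Sox2 had 1 UMI each of S100a10 and S100a6 and 0 of S100a16, and the 4 cells with Sox2 had 8, 2 and 4 UMIs. Most UMIs of these 3 genes thus lay in cells with Sox2. S100a11 was at 95.1 and 80.7 CPM without Sox2 and at 523 and 633 CPM with it, and S100a1 at 11.8 CPM (male) without and 54.6 CPM with it. S100a13 had 48 of its 88 male and 7 of its 7 female UMIs in cells without Sox2. Male cells with Sox2 were deeper (median 25953.5 against 14314.0 UMIs), and the highest Scrublet doublet scores took in 37 of the 338 male cells and 1 of the 24 female cells. Without these, S100a10 was at 48.9 and 28.1 CPM in the class. The part of doublets in the levels of the cells with Sox2 was not tested further.

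Anxa2 did not follow S100a10 in this class. It was at 105 CPM (male) and 64.1 CPM (female) in gonadotroph-like cells, and at 93.6 and 57.7 CPM in those without Sox2 (324 UMIs in 129 of 241 male cells and 15 UMIs in 5 of 18 female cells). Anxa2 was thus 7.88-fold (6.08 to 10.4) and 4.72-fold (2.66 to 8.18) above late differentiating cells. The same ratio of S100a10 was 1.37 (1.18 to 1.61) among male and 0.516 (0.231 to 1.01) among female cells. Among 18 partner genes tested, Ahnak (6.33-fold in the male, and 36.4-fold, 12.5 to 177, on 3 UMIs in the female cells), Anxa11 (3.63-fold, and 11.2-fold, 2.01 to 444, on 1 UMI) and Myh9, the nonmuscle myosin bound by S100A4 (2.18-fold and 2.37-fold), were lower than in SCs. Anxa1 was also lower, at 1.45 CPM (male) and with no UMI (female, where 3 counts would be 8.74 CPM) against 10.3 and 21.9 CPM. Syt1, a calcium sensor of secretory vesicles, and Ppp5c were higher, Syt1 at 135 and 204 CPM against 65.4 and 83.3 CPM.

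POU1F1-lineage cells, the line of somatotrophs, lactotrophs and thyrotrophs, had the highest summed level of the 9 members among the endocrine classes. The sum was 923 CPM (male) and 863 CPM (female), against 377 and 262 CPM in gonadotroph-like and 474 and 386 CPM in POMC-rich cells. This did not hold for each member. Male S100a1 was at 50.3 CPM against 71.7 CPM in POMC-rich cells, and S100a4 at 0.399 and 0 CPM against 7.95 and 5.76 CPM. The highest Scrublet doublet scores took in 99 of the 791 male and 23 of the 282 female POU1F1-lineage cells. Of 6 members tested, 3 were counted as lower than in SCs (S100a6, S100a10 and S100a16), where 8.41% of genes were lower and 6.37% higher, and the median log2 ratio was -1.01 (male) and -1.19 (female), with 0.05 and 0.02 over all genes. S100a10 was at 229.5 and 154 CPM, 3.01-fold (2.71 to 3.34) and 5.87-fold (3.07 to 12.9) above gonadotroph-like cells. S100a11 was at 552 and 557 CPM, 2.48-fold (2.33 to 2.64) and 3.18-fold (2.46 to 4.19) above gonadotroph-like cells. Against SCs, S100a11 was 1.80-fold and 2.17-fold lower and S100a1 1.97-fold and 1.55-fold lower, so that neither reached 2-fold in both libraries.

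The levels of S100a11 and S100a10 in POU1F1-lineage cells did not rest on Sox2. In cells without a Sox2 UMI (424 male and 147 female), S100a11 was at 525 and 450.1 CPM and S100a10 at 192 and 133 CPM. S100a10 was found in 212 of these 424 male cells and 75 of the 147 female cells. In cells with at least 2 Sox2 UMIs (270 and 92), S100a11 was at 594 and 726 CPM and S100a10 at 269 and 206 CPM. Here the annexin partner was the scarcer of the pair without Sox2, at 15.8 and 36.9 CPM of Anxa2. So S100a10 without Sox2 was near absent in gonadotroph-like cells and present in POU1F1-lineage cells, while Anxa2 had the opposite order in the male library (93.6 against 15.8 CPM). In the female library the intervals of Anxa2, 32.3 to 95.1 and 28.7 to 46.6 CPM, overlapped.

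**Figure D4:**
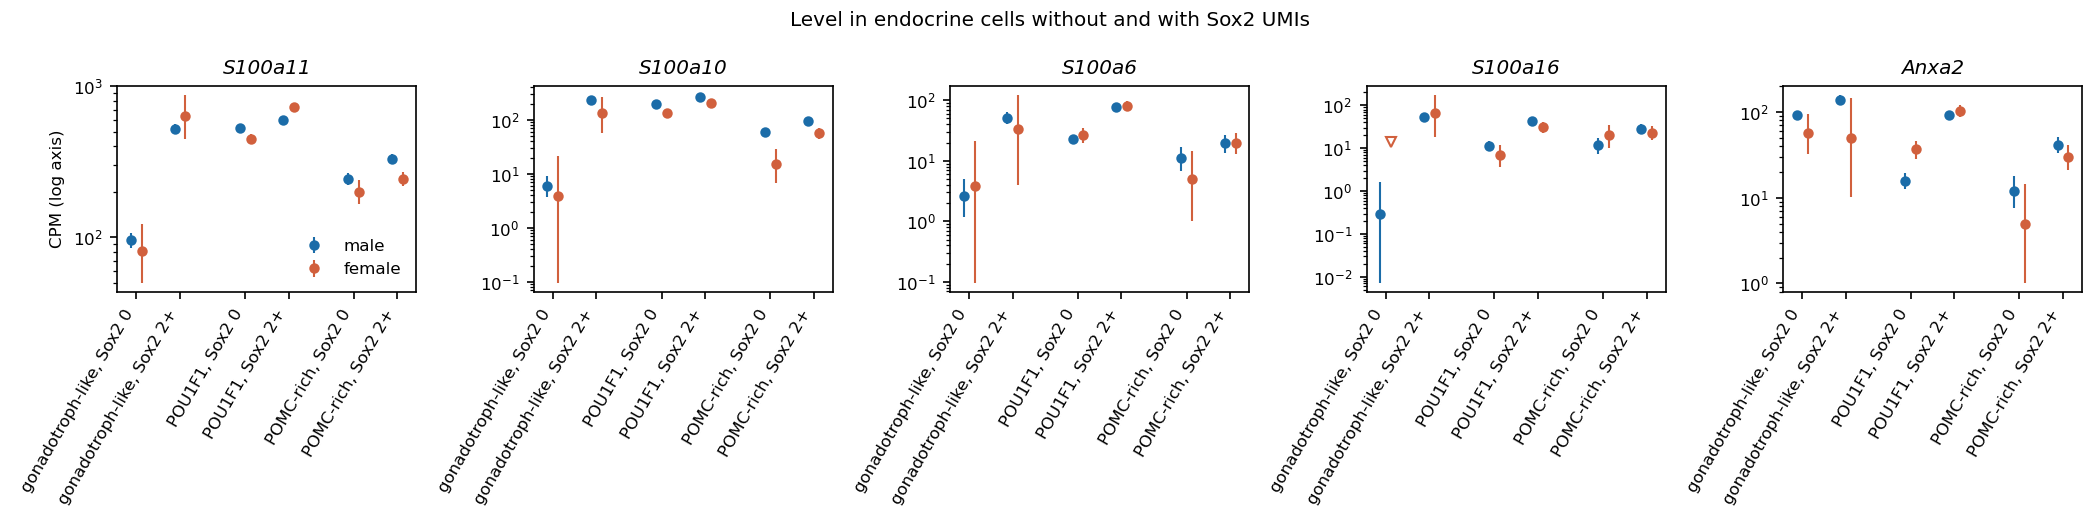
Level (CPM, log axis) of 4 S100 genes and Anxa2 in endocrine cells without a Sox2 UMI and with at least 2, by class, male (blue) and female (orange), with exact Poisson 95% intervals. The open triangle marks the upper bound where no UMI was found; S100a10 without Sox2 is at 6.07 and 3.84 CPM in gonadotroph-like cells and at 192 and 133 CPM in POU1F1-lineage cells.

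Of the 19 partner genes tested in POU1F1-lineage cells, Calb1, a vitamin D dependent calcium-binding protein, was counted as higher. It was at 31.0 CPM (male) and 43.2 CPM (female) against 0.867 and 0.522 CPM in SCs. Ahnak (4.37-fold and 6.42-fold), Anxa2 (3.81-fold and 4.14-fold), Anxa11 (3.21-fold and 3.30-fold) and Tpm1 (2.24-fold and 2.44-fold) were lower.

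POMC-rich cells carried melanotroph markers, and 4 of 6 members tested were lower than in SCs (S100a6, S100a10, S100a11 and S100a16). The background was 15.4% lower and 7.69% higher, and the median log2 ratio of the members was -2.14 (male) and -2.31 (female), with -0.38 and -0.13 over all genes. S100a10 was at 66.7 and 39.0 CPM, S100a11 at 276 and 229 CPM, S100a6 at 13.1 and 12.8 CPM and S100a16 at 17.0 and 19.9 CPM. S100a1 stood apart, at 71.7 and 64.6 CPM, 1.38-fold (1.24 to 1.53) and 1.54-fold (1.31 to 1.83) below SCs. It was 2.73-fold and 3.17-fold above gonadotroph-like cells. S100a13, at 18.9 and 13.3 CPM, was not counted as different either. Here too S100a10 was lower without Sox2 UMIs, at 59.4 CPM (172 male cells) and 14.9 CPM (38 female cells), than with at least 2, at 94.8 and 55.9 CPM (88 and 72 cells). The male cells without Sox2 had a median of 3212.5 UMIs, against 20501.0 with it.

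POMC-rich cells had the highest level of S100a4 among the classes of more than 10 cells, although it stayed under 10 CPM and was not tested. S100A4, also called fibroblast-specific protein, binds nonmuscle myosin. There were 43 UMIs in 33 male cells (7.95 CPM, 5.75 to 10.7) and 13 UMIs in 12 female cells (5.76 CPM, 3.06 to 9.84). Against SCs, at 0.843 and 0.824 CPM, the ratio was 9.43 (5.91 to 15.1) and 6.98 (3.34 to 13.8). At 5000 UMIs a cell, 5.71% (2.99 to 9.77) of male and 3.08% (0.845 to 7.69) of female POMC-rich cells had a UMI, against 0.408% and 0.447% of SCs. Cells with 3 UMIs over 2 immune markers had been left out of all classes, so a low immune level was partly set by that gate. Immune markers, 4 genes, summed to 0.185 and 0.885 CPM in the POMC-rich class, and neutrophil markers to 0.185 and 0 CPM. The next class was the mesenchymal one, at 4.25 and 4.66 CPM, with an interval that overlaps that of POMC-rich cells in both libraries. Pax7 and Oacyl are markers of melanotrophs. In POMC-rich cells, 41 of 43 male and 11 of 13 female S100a4 UMIs lay in cells with at least 2 UMIs of the pair. These cells made up most of the class. Their level, 8.65 and 5.84 CPM, was near the 7.95 and 5.76 CPM of the whole class, so the counts do not set them apart.

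S100g, which encodes calbindin-D9k, a calcium buffer of absorptive epithelia, was spread unevenly inside the POMC-rich class. The split by Pax7 and Oacyl was added after the levels had been seen. The cells with at least 2 UMIs of both genes together held 1 S100g UMI in 210 male cells and 0 in 104 female cells. Cells with neither marker held 9 UMIs in 6 of 84 male cells (17.6 CPM) and 4 UMIs in 4 of 20 female cells (14.3 CPM). The latter also had the corticotroph receptor Crhr1, at 41.0 and 46.3 CPM, which had no UMI in the former. The male cells with neither marker were shallow, with a median of 1845.0 UMIs. S100a10 was higher in them too, at 109 and 135 CPM against 62.7 and 24.4 CPM.

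Among 19 partner genes tested in POMC-rich cells, 2 were higher and 7 lower than in SCs. Syt1 was at 595 CPM (male) and 829 CPM (female) against 65.4 and 83.3 CPM, and Calb1 at 163 and 77.5 CPM against 0.867 and 0.522 CPM. Ahnak was 10.5-fold and 16.7-fold lower, Anxa2 9.41-fold and 13-fold, Tpm1 3.89-fold and 3.34-fold, Anxa11 2.49-fold and 4.35-fold, Anxa5 2.34-fold and 2.41-fold and Myh9 2-fold and 2.18-fold. Anxa1 was at 3.70 CPM and, in the female library, without a UMI. Both annexin genes linked to S100A10 and S100A11 thus had low levels in this class.

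Pituicytes are glia of the posterior lobe, and the 10 male cells of this class can be described only roughly. The 2-fold rule was applied in the male library alone, where it counted 23.0% of genes as lower than in SCs and 20.3% as higher, and 3 of 6 members as lower (S100a6, S100a10 and S100a11). The median log2 ratio of the members was -1.60, with 0.14 over all genes. S100a11 had 4 UMIs in the class (30.9 CPM), S100a10 had 1 UMI (7.73 CPM) and S100a6 had 2 UMIs (15.5 CPM). S100a16 had 18 UMIs (139 CPM, 82.5 to 219.9) in 8 of the 10 cells and S100a1 had 14 UMIs (108 CPM, 59.2 to 182). S100a16 made up 41.9% of the S100 UMIs of these cells, against 5.16% in male SCs, where S100a11 made up 55.6%. No S100b UMI was found, which allows up to 23.2 CPM (3 counts). Of 19 partner genes tested, Ager, the S100 receptor RAGE, was higher with 2 UMIs (15.5 CPM against 0.703 CPM, ratio 22.0, 2.55 to 86.7). Anxa5 was lower (77.3 against 367 CPM), as were Tpm1 (77.3 against 411 CPM), Ahnak (no UMI against 247 CPM), Anxa1 (no UMI against 10.3 CPM), Myh9 with 2 UMIs (ratio 0.334, 0.0405 to 1.21) and Syt1 with 1 UMI (ratio 0.118, 0.00299 to 0.659). The intervals of Anxa1 (up to 2.78) and Myh9 include even. Anxa2 was at 263 CPM, against 200.1 CPM in male SCs.

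Mesenchymal cells (collagen and decorin transcripts without Pitx1) had a different S100 set. Of 7 members tested, 3 were counted as higher than in SCs (S100a6, S100a13 and S100b) and 0 as lower, where 12.0% of genes were higher and 12.6% lower. The median log2 ratio was 0.54 (male) and 0.74 (female), with -0.02 and -0.05 over all genes.

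S100a6 was at 616 CPM (male) and 566 CPM (female) in mesenchymal cells and at 107 and 115 CPM in SCs, 5.74-fold (5.48 to 6.01) and 4.91-fold (4.62 to 5.21) higher. S100a13 was at 76.7 and 95.8 CPM against 20.5 and 24.4 CPM, 3.73-fold (3.30 to 4.22) and 3.93-fold (3.4 to 4.53) higher. For both genes this was the highest of the 8 classes other than the pituicyte-like one, in both libraries. S100a10 was at 683 and 757 CPM, 1.45-fold and 1.67-fold above SCs, and S100a11 at 929.8 and 1001 CPM, 1.07-fold and 1.21-fold below. S100a16 was at 121 and 107 CPM. S100a10 and S100a16 thus also ranked first in mesenchymal cells among these 8 classes, although under 2-fold above SCs and, for S100a16 in the female library, with an interval that overlaps that of Ednrb-rich SCs. S100a1 was at 63.1 and 60.5 CPM. Among 18 partner genes tested, Anxa1 (109 and 92.3 CPM against 10.3 and 21.9 CPM) and Anxa6 (2.04-fold and 2.23-fold) were higher. Syt1 (1.62 and 0.388 CPM against 65.4 and 83.3 CPM) and the calcium pump Atp2b1 (103 and 101 CPM against 223 and 249 CPM) were lower.

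S100b, the glial member, was found in mesenchymal cells and hardly in SCs. There were 85 UMIs in 50 male cells (17.2 CPM) and 54 UMIs in 30 female cells (21.0 CPM). SCs were at 0.445 and 0.302 CPM (19 of 3396 and 10 of 3458 cells with a UMI), so that the ratio was 38.6 (23.3 to 67.3) and 69.3 (35.8 to 147). At 5000 UMIs a cell, 5.59% (3.72 to 8.03) of male and 5.80% (3.35 to 9.24) of female mesenchymal cells had S100b, against 0.340% and 0.0298% of SCs. Unthinned shares were 9.14% and 9.90% against 0.559% and 0.289%.

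Sox10 and Foxd3, transcription factors of neural crest and early glia, were among the Schwann markers that removed cells from all classes. A low level of both was thus partly set by that gate. Neither had a UMI in the 50 male and 30 female mesenchymal cells with S100b. These cells had more Mfap5, which encodes a microfibril protein of fibroblasts, at 963 and 999 CPM against 256 and 327 CPM in mesenchymal cells without S100b. Tcf21, a fibroblast transcription factor, was lower in them, at 401 and 373 CPM against 760.5 and 597 CPM. Mesenchymal cells were therefore divided by Mfap5 UMIs, a division made after the levels had been seen. Since Mfap5 was chosen for its level in cells with S100b, the S100b levels by Mfap5 repeat that link and are not a further result. The same holds for Tcf21. S100b was at 4.27 CPM (male) and 2.58 CPM (female) in cells without Mfap5, at 26.1 and 10.5 CPM with 1 to 4 UMIs and at 45.4 (34.0 to 59.4) and 53.2 (38.8 to 71.2) CPM with 5 or more. S100a10 went from 429.5 and 494 CPM to 1343 and 1198 CPM, S100a6 from 481 and 347 CPM to 939 and 934 CPM, and S100a11 from 752 and 801 CPM to 1303 and 1367 CPM. S100a13 moved less, from 66.3 and 82.6 CPM to 98.5 and 123 CPM. Cells with more Mfap5 were also deeper, with median UMIs from 7348.0 and 6749.0 to 11839.0 and 10884.0, and the part of depth in these differences was not tested. Pericyte markers, 4 genes, summed to 284 and 229.7 CPM in the mesenchymal class, and the 49 male and 30 female cells with at least 2 of them had 3 S100b UMIs in each library.

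**Figure D5:**
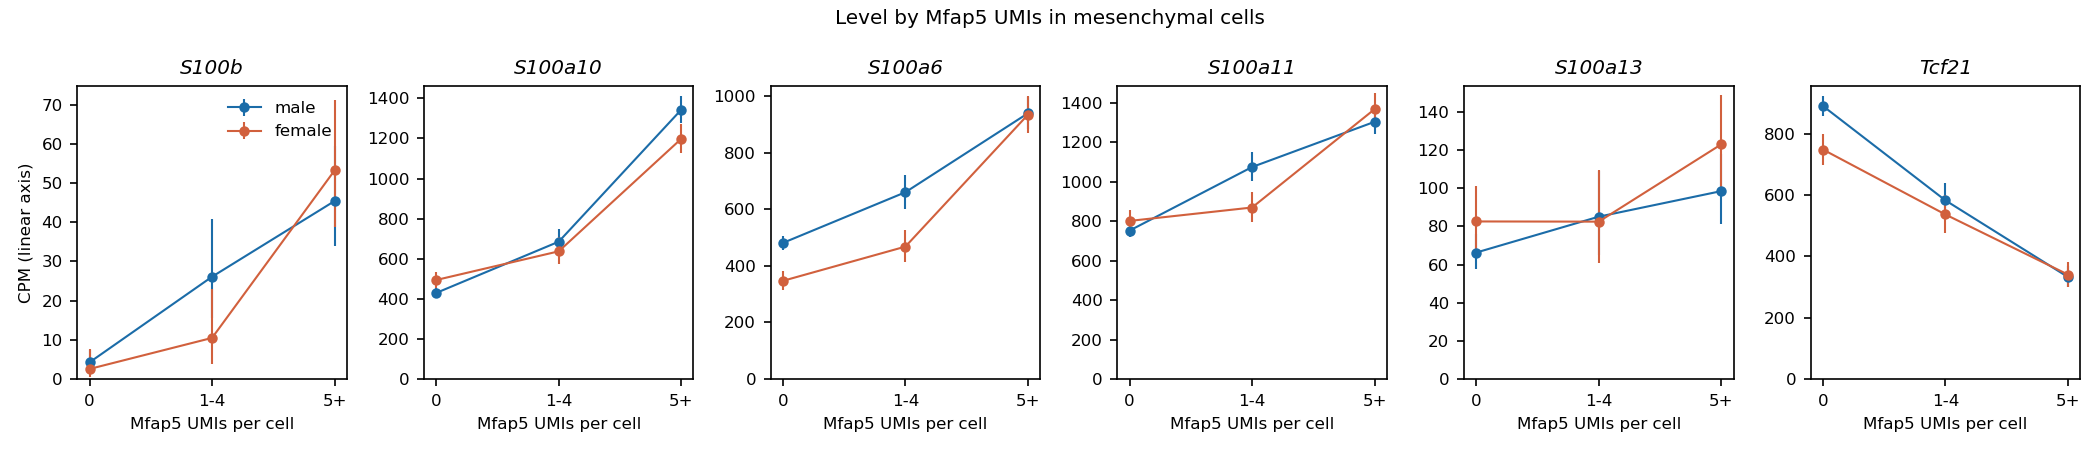
Level (CPM, linear axis from 0) of 5 S100 genes and Tcf21 in mesenchymal cells by Mfap5 UMIs per cell, male (blue) and female (orange), with exact Poisson 95% intervals. The groups hold 379, 81 and 87 male and 163, 67 and 73 female cells; S100b is at 4.27 and 2.58 CPM in the first group and at 45.4 and 53.2 CPM in the last, while Tcf21 goes the other way. Mfap5 was chosen because it was higher in cells with S100b.

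Outside the POMC-rich class, S100g was a low transcript of SCs and differentiating cells. It was at 2.55 CPM (male, 94 of 3396 cells) and 3.46 CPM (female, 100 of 3458 cells) in SCs and at 1.76 and 1.19 CPM in differentiating cells. The ratio of differentiating cells to SCs was 0.691 (0.424 to 1.08) and 0.344 (0.161 to 0.653), so that the male interval included even. Male mesenchymal cells had 1 UMI and female ones 0, where 3 counts would be 1.16 CPM. At 5000 UMIs a cell, 1.26% (0.887 to 1.73) and 1.46% (1.08 to 1.93) of SCs had a UMI and 0 mesenchymal cells did (up to 0.761% and 1.33%). Vdr, the vitamin D receptor that controls S100g in gut, had 8 and 9 UMIs over all SCs.

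Few members differed 2-fold between the libraries within a class. Of the 6 members tested in Ednrb-rich, Aldh1a2-rich and other SCs, 0 differed 2-fold between male and female, where 0.677%, 0.430% and 0.576% of all genes did. In differentiating cells it was 0 of 5 (0.646% of genes), in POU1F1-lineage cells 0 of 6 (1.05%), in POMC-rich cells 0 of 6 (3.44%) and in mesenchymal cells 0 of 7 (1.89%). In gonadotroph-like cells 1 of 6 did (12.8% of genes), S100a10, with 421 UMIs in 338 male and 9 UMIs in 24 female cells (ratio 2.91, 1.52 to 6.41). Without Sox2 UMIs the levels were 6.07 and 3.84 CPM, from 21 UMIs and 1 UMI. In POU1F1-lineage and POMC-rich cells the male S100a10 level was also above the female one, 1.49-fold (1.37 to 1.63) and 1.71-fold (1.35 to 2.19). The POMC-rich cells differed in depth, with 132 of 342 male but 1 of 131 female cells under 5000 UMIs. The part of depth in this ratio was not tested. In POU1F1-lineage cells S100a16 had a male over female ratio of 1.51 (1.17 to 1.99) and S100a13 one of 0.628 (0.482 to 0.824). S100a11 lay below the female level in Ednrb-rich SCs (ratio 0.822, 0.804 to 0.840) and in differentiating cells (0.807, 0.769 to 0.847). These ratios compare 1 library with another.

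Across 8 classes (the pituicyte-like class left out), the members with the most similar patterns were S100a10 and S100a11. Pearson's r of their log2(CPM + 1) was 0.978 (male) and 0.977 (female). S100a1 and S100a13, whose starts are 43 bp apart, had 0.465 and 0.295, the lowest of the 15 pairs in the female library; in the male library the lowest was S100a1 with S100a6 at 0.461. Among 8117 other genes at 20 CPM or more in some class, those most like S100a11 were Mcm4, Vgll4 and Zdhhc4 (0.971 to 0.989), those most like S100a10 Ltbp3, Itpr2 and Stxbp6 (0.977 to 0.985), and those most like S100a16 Snx3, Rhoc and Cox6b2. S100a6 was closest to Col4a2 (0.995 and 0.990), Myl12a and Bmp1, S100a13 to Txndc12, Cd63 and Copz2, and S100a1 to Atad2 (0.969 and 0.973), Cenpp and Pclaf. These are descriptions over 8 classes of the same library, which share its depth and RNA background. The SC subdivisions count as separate classes, and the genes were picked for the highest r, so a high r follows from the choice. A shared function was not tested.

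Of the 8 further S100 genes, S100a14 and S100z had a pattern that could be read. S100a14, which lies between S100a13 and S100a16, was at 8.06 CPM (male) and 8.52 CPM (female) in SCs and at 3.09 and 2.74 CPM in differentiating cells, with no UMI in mesenchymal cells. S100z was at 2.77 and 2.21 CPM in POMC-rich cells, from 15 and 5 UMIs, and at 0.117 and 0.110 CPM in SCs. S100a3 had 11 UMIs in a single female Ednrb-rich cell, and it overlaps S100a2 on the same strand over 1262 bp, so that reads of the pair may be split.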

How the data were processed

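Single-cell 3′ RNA was measured in SOX9iresGFP+ pituitary cells, 1 male and 1 female library. The authors ran Cell Ranger with STAR on mm10 with the eGFP sequence added and deposited raw UMI counts per gene and barcode, without normalization.

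Cells with at least 50 genes and a mitochondrial share at most 3 SD above the library mean were kept, after the methods (limits 20.4% and 26.1%, with 159 male and 85 female barcodes removed). Doublets were kept, because the methods mention no removal. An alternative left out a preset number of cells with the highest Scrublet scores, 867 male (8.33%) and 261 female (4.57%). Classes were set by raw UMIs in each cell. Mesenchymal cells had 20 UMIs of Dcn, Lum, Col1a1, Col1a2 and Col3a1 with 3 of these detected, and pituicyte-like cells 3 UMIs of Rax, Nkx2-1, Col25a1 and Scn7a with 2 detected, both without Pitx1. Gonadotroph-like cells had 10 Cga UMIs and 2 of Gnrhr, Lhb, Fshb and Nr5a1, with fewer than 2 of Pou1f1. POU1F1-lineage cells had 2 Pou1f1 UMIs. POMC-rich cells had 50 Pomc UMIs and 1 of Pax7, Tbx19 and Pcsk2. Differentiating cells had 2 Lef1 UMIs. SCs had 2 Sox2 UMIs without Lef1, Ednrb-rich ones 2 Ednrb UMIs, and Aldh1a2-rich ones 4 Aldh1a2 UMIs without Ednrb. Mixed cells (109 male, 27 female) were left out. They met more than 1 of the mesenchymal, pituicyte-like and endocrine gates, or met the mesenchymal or pituicyte marker minimums with Pitx1 present. Cells with 3 UMIs over 2 endothelial, immune or Schwann markers (21 and 11) were left out too.

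Summed UMIs per class gave CPM. For shares, cells were thinned to 5000 UMIs (seed 1), and shallower cells (3627 male, 287 female) did not enter them. The ratio and call steps were tested on simulated counts. The named genes are the 9 members, the other S100 genes (S100a2, not in the list first drawn up, was added because it had a row), those of 25 partner and pathway genes that passed the 2-fold rule, and the 3 genes most like each member at 20 CPM or more. Members, lists and classes were chosen with earlier results of these data known. Gene positions are those of GENCODE vM21 (mm10), in which all 9 gene IDs were found. Python 3.11.15, numpy 2.4.6, scipy 1.17.1, pandas 2.3.3 and scanpy 1.11.5 were used. Alternatives were other cell filters, doublet removal, doubled or thinned gates, cycling cells left out, per-cell means, other totals and other limits of the rule. Some marker genes are not reported here.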

Additional observations from a re-analysis of the deposited data

Results flagged for a closer look

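Barcodes that fell into no class, which the comparisons do not use, also held S100 transcripts. The summed level of the 9 members in them was 885 CPM in the male library (3967 barcodes) and 1079.7 CPM in the female library (872 barcodes). These lie between the sums in differentiating cells (449 and 538 CPM) and in SCs (1789 and 2001 CPM). Of these barcodes, 2658 male and 99 female ones had fewer than 3000 UMIs, and the sum in the shallow ones was 1207 and 1755 CPM, of which S100a11 made up 59.7% and 59.8%.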

How the results depend on the processing

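No paired analysis was possible because each sex has 1 library. Of 210 counts of members obtained under the alternatives, 198 were within 1.5 times the reported ones and 12 were not. Between Ednrb-rich and Aldh1a2-rich SCs, 1 member was higher instead of 0 with gates on thinned counts. Between POU1F1-lineage cells and SCs, 5 members were lower at a 1.5-fold limit and 1 at a 3-fold limit instead of 3. With a minimum of 5 CPM, 1 member was higher in POMC-rich cells and 2 were higher in pituicyte-like cells, and at a 1.5-fold limit 1 was higher in pituicyte-like cells and 1 lower in mesenchymal cells, where none had been. Differences between the libraries within a class, 1 as reported, were 5 with doubled gate minimums, 2 with thinned gates, 4 with per-cell means, 5 at a 1.5-fold limit and 0 at a 3-fold limit. The cause of these changes was not tested beyond the limits of the rule itself.

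Of 102 levels with at least 20 UMIs, those that moved more than 1.5-fold were 4 without the highest Scrublet scores, 5 with doubled gates, 11 with thinned gates, 5 without cycling cells and 2 with per-cell means. None moved so far with every barcode kept, with only cells of 2000 genes or more, or with mitochondrial and hormone genes left out of the totals. Leaving out endocrine cells with a Sox2 UMI, chosen after seeing the data, moved 12 of 32 such levels, and the counts of members lower than SCs were then 5, 3 and 4 in gonadotroph-like, POU1F1-lineage and POMC-rich cells. With 24 female gonadotroph-like and 10 pituicyte-like cells, levels near 10 CPM rest on a few UMIs, and smaller differences there were not detectable at this depth.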
